A study of Mus musculus with 17 samples.

Results

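Muscle cells keep a set of ubiquitin ligases and ligase adaptors that other cells largely lack, and 10 genes of this kind or tied to it were followed by name in the mouse heart after myocardial infarction. They are the RING ligases Trim63, Trim54 and Trim55, the F-box genes Fbxo32 and Fbxo40, the cullin adaptors Asb2 and Kbtbd10, the caveolar gene Murc, and the transcription factors Foxo1 and Foxo3. All 10 were found among the 31647 features of the count table through their gene identifiers. The annotation of GRCm38 now calls Kbtbd10 Klhl41 and Murc Cavin4. The rule is by name and uses no measured value, though earlier results of these data were known when it was written.

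Ubiquitin ligases mark proteins for the proteasome. In skeletal muscle, the ligases MuRF1 (Trim63) and atrogin-1 (Fbxo32) rise during fasting, denervation and glucocorticoid treatment, and FoxO transcription factors switch both genes on when insulin and AKT signalling falls. In the heart the same ligases take part in the turnover of sarcomere proteins, and they are made by cardiomyocytes.

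The data came from 17 wild-type male C57BL/6 J mice aged 8 to 11 weeks, all sampled 5 days after surgery. In 9 mice a permanent ligature had closed the left anterior descending artery, and RNA was taken from the infarct zone, a tissue that holds dying muscle, scar-forming cells and leukocytes side by side. The other 8 had the same operation without ligation (sham), and RNA was taken from the left ventricle. Each library came from 1 mouse, and transcripts were counted at their 3' ends from libraries built with molecular identifiers, which serve to remove PCR duplicates.

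Libraries held 1237675 to 4738307 counts. Levels are given as CPM, the usual counts relative to library size, here after TMM scaling (trimmed mean of M values, factors 0.616 to 1.53). A gene was called when its adjusted p fell under 0.05 in edgeR's quasi-likelihood test over 12301 genes, and 69.5% of those genes were called, 36.3% as higher and 33.1% as lower after infarction. All genes together had a median log2 fold change of 0.05 with this scaling and 1.13 when libraries were scaled by total counts alone, so the direction of small changes depends on the scaling. With total counts alone, 87.1% of all tested genes were called, 74.6% as higher and 12.5% as lower. The 13 genes of a cardiomyocyte sarcomere panel (titin, actin, myosin and troponin genes among them) together ran from 70912 to 86877 CPM in sham, and all 13 fell. In the infarct zone, replicate 1 stood apart: its panel level was 33848 CPM, against 3357 to 7874 in the other 8 libraries. Mitochondrially encoded transcripts took 19.5% of its counts, against 4.22 to 6.78% in those 8 and 22.9 to 32.4% in sham. Fibroblast markers were higher for 7 of 8 genes, from Pdgfra (0.94) to Postn (3.95) and Col1a1 (4) on the log2 scale, with Dcn (0.04) not called, and leukocyte markers for 7 of 7, from Csf1r (2.31) and Cd14 (2.61) to Fcgr1 (3.85) and Cd68 (4.09). In bulk tissue, fewer cardiomyocytes and less RNA per cardiomyocyte cannot be told apart.

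Of the 10 genes, 9 had enough counts to test, and 8 of those 9 were lower in the infarct zone, where 33.1% of all tested genes were. Their median log2 fold change was -2.65. The 7 treated here as muscle genes (Trim63, Trim54, Fbxo32, Fbxo40, Asb2, Kbtbd10 and Murc) fell by 2.06 to 3.30 on the log2 scale. Foxo3 fell by 0.91, and Foxo1 did not pass the test. Whether other cells of the tissue add to the counts of the 7 was not tested. In 6 of the 9, every sham library exceeded all 9 infarct zone libraries, as happened for 16.5% of all tested genes. Infarct zone replicate 1 was the highest infarct zone library for 9 of the 10 genes, Foxo3 being the exception.

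**Figure D1:**
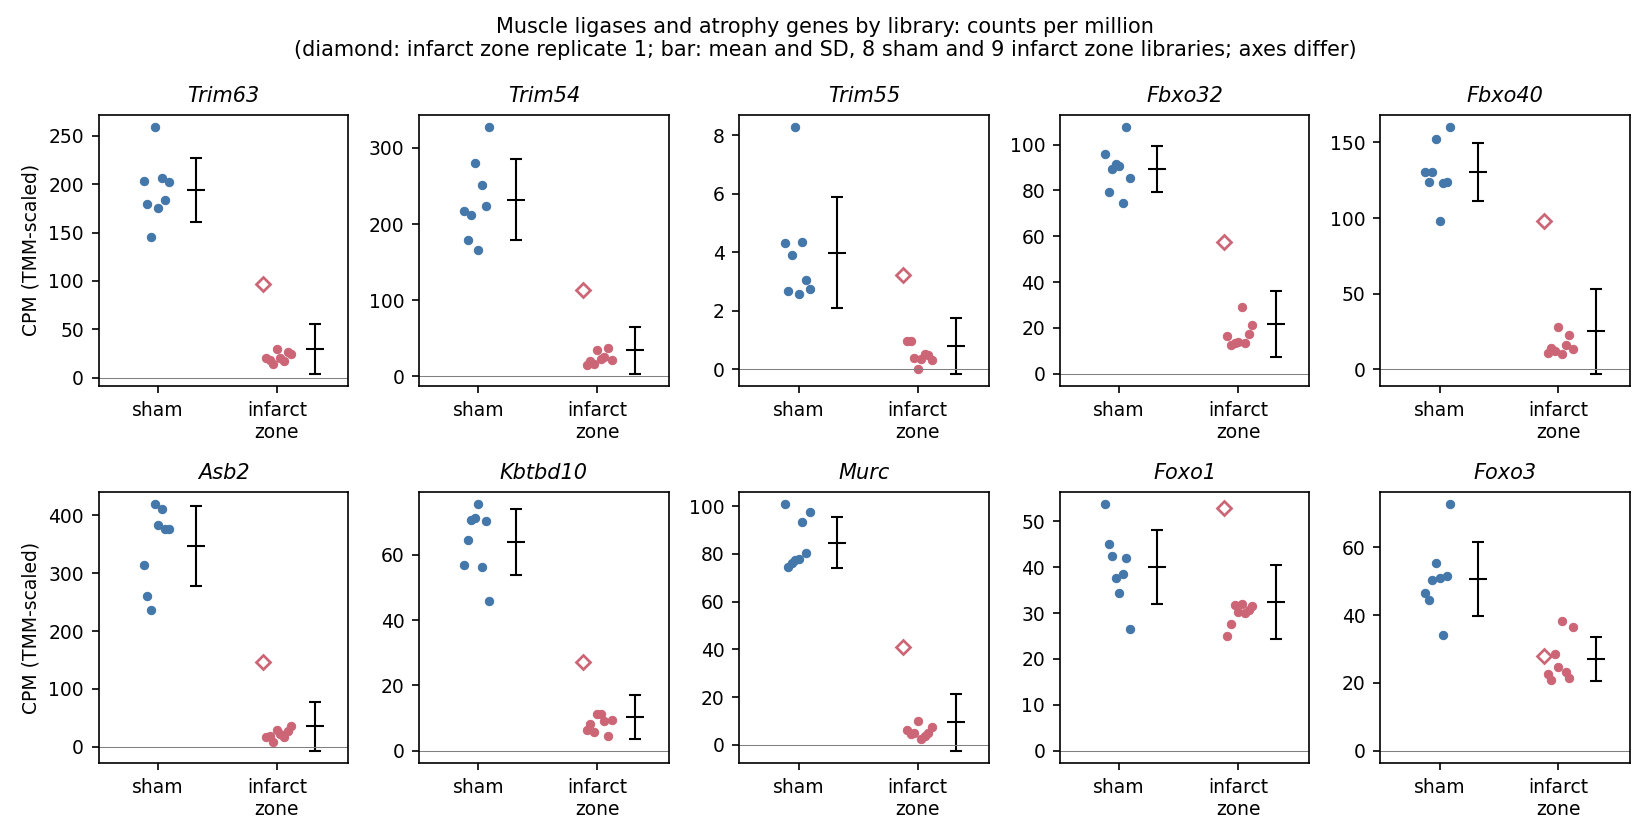
The level of each gene in every library, in CPM (vertical axes start near 0 and differ between genes), for 8 sham libraries (blue) and 9 infarct zone libraries (red), with the mean and SD beside each group. Infarct zone replicate 1 (open diamond) lies between the groups for Trim63, Trim54, Fbxo32, Asb2, Kbtbd10 and Murc. For Trim63 it is at 96.6 CPM, against 13.7 to 29.2 CPM in the other infarct zone libraries. It lies just inside the sham range for Fbxo40 and near the sham median for Trim55. For Foxo1 it is near the top of both groups, and for Foxo3 it is within its group.

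Trim63 (ENSMUSG00000028834, chr4:134315120-134329629, plus strand of GRCm38) encodes MuRF1, a RING ligase of the sarcomere that marks myosin, troponin I and creatine kinase for breakdown. Its level ran from 145 CPM over a median of 193 to 259 CPM in sham, and from 13.7 over 20.4 to 96.6 CPM in the infarct zone. The groups did not overlap, and the infarct zone value closest to sham was that of replicate 1. The group means were 194 ± 33.0 CPM (SD, n = 8) and 29.6 ± 25.6 CPM (SD, n = 9), a log2 fold change of -2.73 ± 0.29 (SE, adjusted p = 2.1e-08 by edgeR). Without replicate 1 the fall was deeper and more even, -3.26 ± 0.14 on the log2 scale.

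Trim54 (MuRF3, ENSMUSG00000062077, chr5:31116712-31137630, plus strand) is a relative of MuRF1 that binds microtubules and takes part in the turnover of myosin heavy chain and filamin. It ran from 166 over 221 to 327 CPM in sham hearts and from 15.6 over 22.3 to 113 CPM in the infarct zone. Every infarct zone library was again below every sham library. The log2 fold change was -2.79 ± 0.32 (SE, adjusted p = 5.4e-08 by edgeR), from 232 ± 52.9 CPM (SD, n = 8) to 34.1 ± 30.6 CPM (SD, n = 9).

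Trim55 (MuRF2, ENSMUSG00000060913, chr3:19644474-19692421, plus strand), the third MuRF gene, was near the limit of detection and did not pass the filter on low counts. Sham libraries held 4 to 15 of its counts each and infarct zone libraries 0 to 9, or 2.56 to 8.28 CPM and 0 to 3.23 CPM. It had 56 counts in all 8 sham libraries together and 28 in all 9 infarct zone libraries. A fit with no filter, over 27668 genes, gave a log2 fold change of -2.10 ± 0.47 (SE, adjusted p = 3.1e-04 by edgeR), and that value rests on these few counts. Infarct zone replicate 1, with 3.23 CPM, was near the sham median of 3.49 CPM, while the other 8 stayed at or under 0.979 CPM.

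The promoter of Trim63 is known for a composite element where FoxO and the glucocorticoid receptor bind side by side. RefSeq windows of 250 bases before to 50 bases after the start were given for 8 of the 10 genes (GRCm38.p6), with none for Trim55 and Fbxo32. These 8 genes had 10 windows, as Fbxo40 and Asb2 have more than 1 start. Both strands of each window were searched. The FoxO element GTAAACA was present in the window of 1 of the 8 genes, Trim63, and in 3.65% of 32851 mouse promoter windows. It was read on the strand opposite to the gene, 194 to 188 bases before the start, and it adjoined the receptor hexamer TGTTCT 200 to 195 bases before the start, which 19.0% of all windows hold. The stretch is shown because both elements stand in it, in capitals without a gap, from chr4:134314886-134314965 on the plus strand.
Trim63: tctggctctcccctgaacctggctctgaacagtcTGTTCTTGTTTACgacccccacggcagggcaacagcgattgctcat
A match of letters is a description of the sequence and says nothing of binding in these hearts.

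Fbxo32 (ENSMUSG00000022358, chr15:58175879-58214932, minus strand) encodes atrogin-1, the F-box protein that brings calcineurin and other substrates to a SCF ligase. It ran from 74.3 over 90.1 to 108 CPM in sham hearts and from 12.4 over 16.3 to 57.4 CPM in the infarct zone. The groups stayed apart, and infarct zone replicate 1 and replicate 6 (29.1 CPM) were the highest of their group. The means were 89.3 ± 10.2 CPM (SD, n = 8) and 21.6 ± 14.4 CPM (SD, n = 9), and the log2 fold change was -2.06 ± 0.24 (SE, adjusted p = 7.3e-08 by edgeR). This was the smallest fall among the 7 muscle genes.

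Fbxo40 (ENSMUSG00000047746, chr16:36963460-36990467, minus strand), a muscle-specific F-box protein that targets the insulin receptor substrate IRS1, ran from 98.0 over 127 to 160 CPM in sham. In the infarct zone it ran from 10.1 over 14.4 to 98.4 CPM. The highest infarct zone value, in replicate 1, lay just above the lowest sham value, and the other 8 libraries were below all sham libraries at 28.1 CPM or less. The log2 fold change was -2.40 ± 0.36 (SE, adjusted p = 2.6e-06 by edgeR) with all libraries and -3.13 ± 0.16 without replicate 1.

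Asb2 (ENSMUSG00000021200, chr12:103321142-103356001, minus strand) encodes a cullin 5 adaptor whose known targets are filamins. It had the lowest fold change of the 9 tested genes. Sham libraries ran from 236 over 376 to 419 CPM and infarct zone libraries from 8.04 over 21.2 to 147 CPM. Replicate 1 again led the infarct zone, and the groups did not overlap. The means were 347 ± 68.9 CPM (SD, n = 8) and 35.6 ± 42.6 CPM (SD, n = 9), a log2 fold change of -3.30 ± 0.41 (SE, adjusted p = 1.6e-07 by edgeR), which became -4.09 ± 0.20 without replicate 1.

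Kbtbd10 (Klhl41, ENSMUSG00000075307, chr2:69670120-69684230, plus strand) is a kelch protein that joins cullin 3 and stabilises nebulin in skeletal muscle. It ran from 45.7 over 67.4 to 75.4 CPM in sham hearts and from 4.60 over 9.13 to 27.3 CPM in the infarct zone, with no overlap. The log2 fold change was -2.65 ± 0.24 (SE, adjusted p = 1.4e-09 by edgeR). The last 500 bases of its transcript share at least 100 bases at 95% identity or more with transcripts of 134 other genes, so its counts could include reads from elsewhere.

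Murc (Cavin4, ENSMUSG00000028348, chr4:48663514-48673502, plus strand) is a muscle-specific cavin, a coat protein of the caveolae at the cardiomyocyte surface, and not a ligase. It ran from 74.6 over 79.2 to 101 CPM in sham hearts and from 2.52 over 5.12 to 40.9 CPM in the infarct zone. Outside replicate 1 no infarct zone library exceeded 10.1 CPM, and the groups were apart. The log2 fold change was -3.19 ± 0.36 (SE, adjusted p = 5.2e-08 by edgeR), and -3.97 ± 0.16 without replicate 1. The 95% intervals of the 7 muscle genes overlapped, down to those of Asb2 (-4.14 to -2.46) and Fbxo32 (-2.55 to -1.56), and differences between genes were not tested.

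The promoters of 3 of these genes hold sites named for muscle regulators. A MEF2 site, present in 3.19% of all windows, was found 63 to 54 bases before the start of Kbtbd10. Another was found 101 to 92 bases before 1 of the starts of Fbxo40. A CArG box of SRF, present in 1.63% of all windows, was found 64 to 55 bases before 1 of the starts of Asb2. The other window of Fbxo40 and of Asb2 held no such site. These stretches are shown, with the sites in capitals, because MEF2 and SRF are the textbook regulators of sarcomere genes. They come from chr2:69670022-69670101 on the plus strand, chr16:36990524-36990603 on the minus strand and chr12:103356021-103356100 on the minus strand.
Kbtbd10: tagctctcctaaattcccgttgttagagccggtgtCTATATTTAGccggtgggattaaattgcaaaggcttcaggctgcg
Fbxo40: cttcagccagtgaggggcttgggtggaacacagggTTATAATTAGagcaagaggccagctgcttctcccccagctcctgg
Asb2: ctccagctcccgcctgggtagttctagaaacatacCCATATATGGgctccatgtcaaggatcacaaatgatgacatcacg
The E-box CANNTG, the core site of myogenic and other helix-loop-helix factors, stood in 72.3% of all windows. It stood in 9 of the 10 windows here, which belong to 7 of the 8 genes.

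Foxo1 (ENSMUSG00000044167, chr3:52268336-52353221, plus strand) and Foxo3 (ENSMUSG00000048756, chr10:42181841-42276755, minus strand) encode the transcription factors that AKT holds outside the nucleus. These factors are active in many cell types, endothelium and macrophages included. Foxo1 ran from 26.4 over 40.3 to 53.7 CPM in sham hearts and from 24.9 over 30.7 to 52.8 CPM in the infarct zone, and the overlap came from 1 library of each group. These were infarct zone replicate 1 (52.8 CPM) and sham replicate 8 (26.4 CPM), and the other 7 sham libraries, at 34.4 CPM or more, exceeded the other 8 infarct zone libraries. Its log2 fold change of -0.31 ± 0.15 did not pass the test (SE, adjusted p = 0.067 by edgeR). Without infarct zone replicate 1 its group ran from 24.9 to 32 CPM, and the change was called at -0.46 ± 0.13 (SE, adjusted p = 0.0018 by edgeR). It was also called without sham replicate 8, at -0.39 (adjusted p = 0.020 by edgeR). With total counts as the only scaling it was called higher, at 0.74, still under the median of all genes on that scale. These 3 were the only ones of 25 alternatives in which Foxo1 was called.

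Foxo3 ran from 34.2 over 50.5 to 72.6 CPM in sham hearts and from 20.7 over 24.7 to 38.1 CPM in the infarct zone. Here 7 of 9 infarct zone libraries were below every sham library, and replicate 1, at 28.0 CPM, was not apart from the others. The log2 fold change was -0.91 ± 0.15 (SE, adjusted p = 9.0e-06 by edgeR). Scaling by total counts alone turned it to 0.16, which was not called (adjusted p = 0.35 by edgeR).

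**Figure D2:**
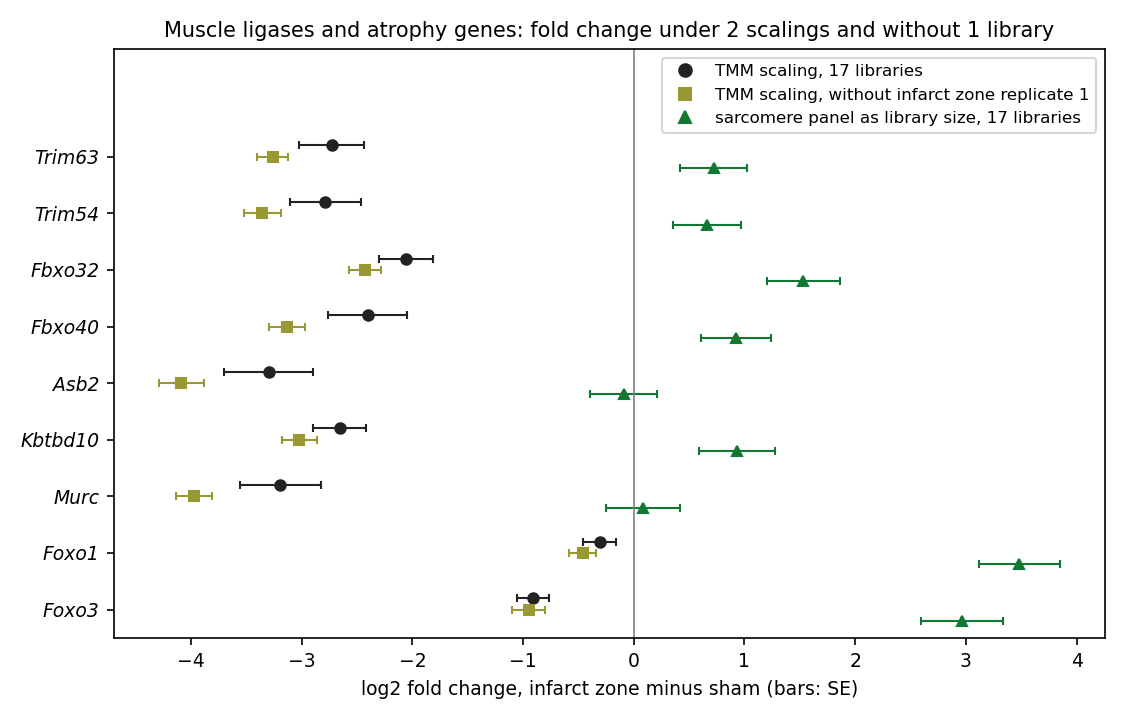
Log2 fold change of the 9 tested genes, infarct zone minus sham, with SE bars, for TMM scaling with all 17 libraries (circles), the same without infarct zone replicate 1 (squares), and a fit that uses the sarcomere panel as library size (triangles). The 7 muscle genes lie between -2.06 and -3.30 with TMM scaling and between -0.09 and 1.53 relative to the panel, while Foxo1 and Foxo3 lie at 3.48 and 2.96 relative to the panel.

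The muscle genes fell in a tissue whose cardiomyocyte transcripts fell as well, so each gene was also set against the sarcomere panel of its own library. The panel went from 81981 ± 6097 CPM (SD, n = 8) to 8566 ± 9621 CPM (SD, n = 9), or 5406 ± 1747 CPM (SD, n = 8) without infarct zone replicate 1. Its single genes changed by -2.12 (Actc1, cardiac actin) and -2.20 (Tnnt2) at the least and by -4.19 (Tnni3) and -4.33 (Tcap, telethonin) at the most on the log2 scale. A panel of 10 other cardiomyocyte genes, from Hrc (-4.63) and Ckm (-4.08) to Trdn (-2.63) and Corin (-2.62), fell as well. In this fit the panel counts took the place of the library size. Nearly every gene is higher on this scale, with 97% of all tested genes called higher, 0.512% called lower and a median log2 difference of 3.94. A difference of 0 means that a gene fell as much as the summed panel, to which the most abundant sarcomere genes contribute most. Single panel genes were spread around that sum, from -1.08 (Tcap) to 1.29 (Actc1), with 5 of the 13 called higher than it and 5 lower.

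Asb2 and Murc did not pass the test relative to the panel. Asb2 had 3.09 to 5.40 counts per 1000 panel counts in sham (mean 4.23 ± 0.81, SD, n = 8) and 2.40 to 4.77 in the infarct zone (mean 3.97 ± 0.67, SD, n = 9). The ranges overlapped for most libraries, and replicate 1 with 4.35 was in the midst of them. The log2 difference was -0.09 ± 0.30 (SE, adjusted p = 0.76 by edgeR), and its 95% interval from -0.69 to 0.51 leaves room for a modest change either way. Murc had 0.894 to 1.16 per 1000 in sham hearts and 0.463 to 1.62 in the infarct zone, a log2 difference of 0.08 ± 0.34 (SE, adjusted p = 0.81 by edgeR, 95% interval -0.59 to 0.76). The infarct zone values of Murc were spread to both sides of the narrow sham range, 4 above and 2 below it.

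Fbxo32 rose relative to the panel. It had 0.857 to 1.29 counts per 1000 panel counts in sham hearts and 1.70 to 5.36 in the infarct zone, so that all 9 infarct zone libraries were above every sham library. Of all tested genes, 97% were called higher on this scale. The share of them with libraries so placed is not given here, for Fbxo32 or for the genes below. Replicate 1 had the lowest infarct zone ratio and replicate 6 the highest. The log2 difference was 1.53 ± 0.33 (SE, adjusted p = 2.0e-05 by edgeR), a ratio 2.89 times that of sham, and lies above the values of all 13 single panel genes.

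Fbxo40, Kbtbd10, Trim63 and Trim54 rose relative to the summed panel by smaller amounts, which lie within the -1.08 to 1.29 spanned by single sarcomere genes on the same scale. Fbxo40 had 1.38 to 1.84 per 1000 in sham hearts and 1.82 to 4.23 in the infarct zone, with 8 of 9 libraries above the sham range and a log2 difference of 0.92 ± 0.32 (SE, adjusted p = 0.0050 by edgeR). Kbtbd10 had 0.526 to 1.06 and 0.680 to 2.40, with 7 of 9 above and a log2 difference of 0.93 ± 0.35 (SE, adjusted p = 0.0090 by edgeR). The overlap of these 2 genes with sham came from 1 and 2 libraries. Trim63 had 1.90 to 2.99 in sham hearts and 2.85 to 5.33 in the infarct zone, with 8 of 9 above, and a log2 difference of 0.72 ± 0.30 (SE, adjusted p = 0.021 by edgeR). Trim54 had 2.29 to 3.77 and 3 to 6.77, with 7 of 9 above, and 0.66 ± 0.31 (SE, adjusted p = 0.036 by edgeR). The fit shares its estimate of spread with all other genes, which vary widely on this scale. An exact two-sided permutation of the log2 ratio over 24310 splits was chosen after seeing the data. It gave unadjusted p = 1.2e-04 for Trim63, 8.2e-04 for Trim54, 0.54 for Asb2 and 0.98 for Murc, and at most 0.0036 for the other tested genes. The edgeR fit called 97% of all tested genes higher on this scale. A permutation share over all genes is not given here, so these small p values do not set the genes apart. The Trim54 call was lost under 11 of 24 alternatives and the Trim63 call under 1.

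Foxo1 and Foxo3 stood nearer to the bulk of genes on this scale than the muscle genes did. Their log2 differences were 3.48 ± 0.36 and 2.96 ± 0.37 (SE, adjusted p = 1.3e-13 and 4.4e-11 by edgeR), beside the median of 3.94 for all genes. Foxo1 had 0.304 to 0.619 per 1000 in sham hearts and 1.56 in infarct zone replicate 1, with 3.85 to 9.46 in the other infarct zone libraries. Foxo3 had 0.395 to 0.836 in sham hearts and 0.827 in replicate 1, which lay within the sham range, with 3.14 to 8.47 elsewhere.

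**Figure D3:**
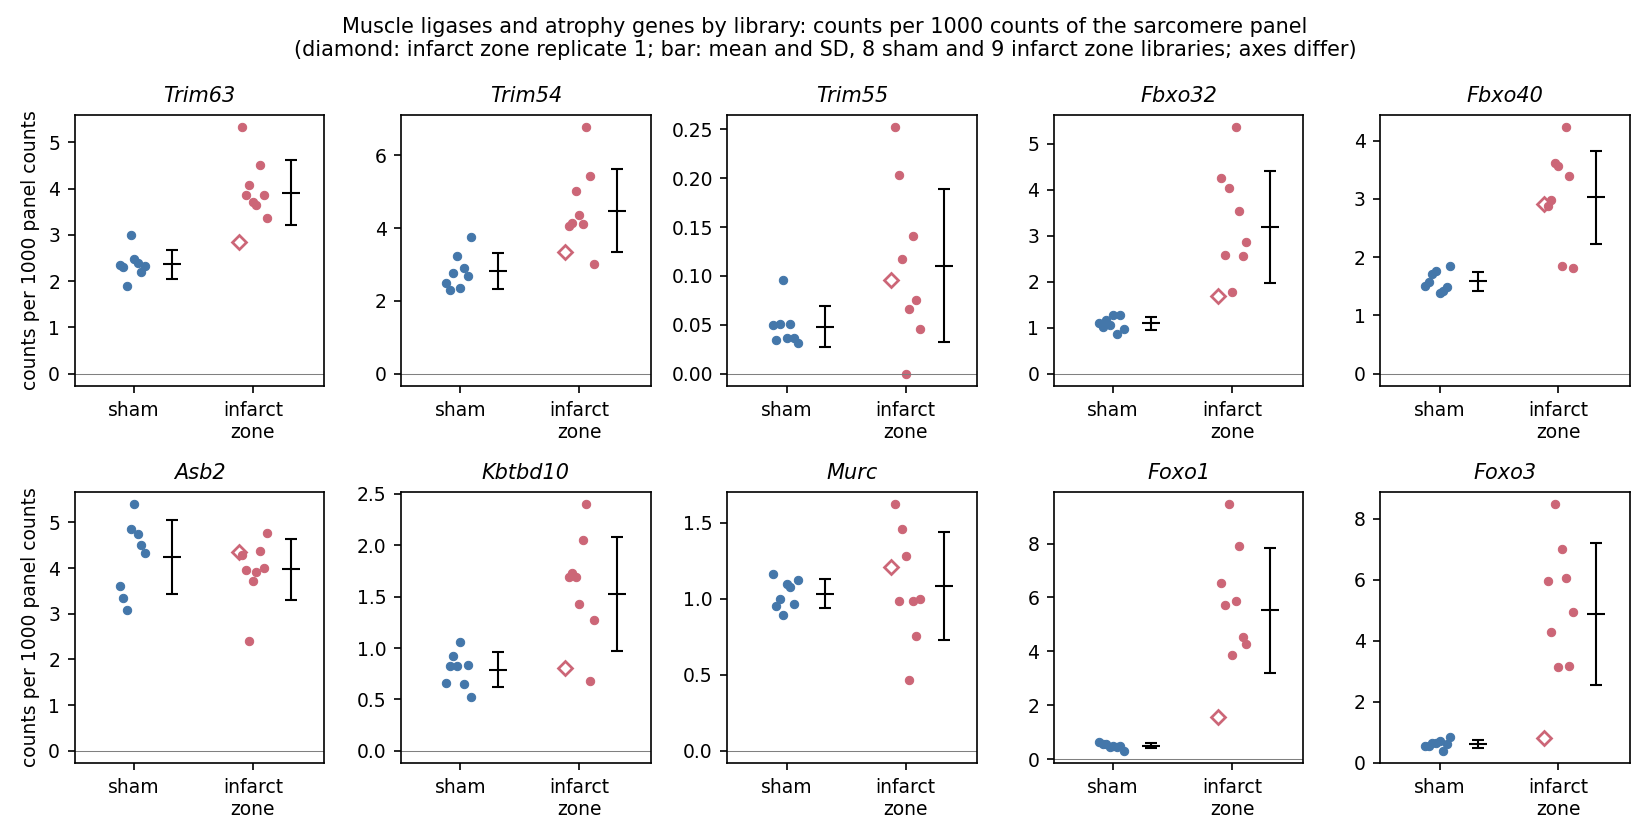
Counts of each gene per 1000 counts of the sarcomere panel in the same library, for 8 sham (blue) and 9 infarct zone (red) libraries, with the mean and SD beside each group and infarct zone replicate 1 as an open diamond. Asb2 spans 3.09 to 5.40 in sham hearts and 2.40 to 4.77 in the infarct zone, while for Fbxo32 the infarct zone libraries, at 1.70 to 5.36, all lie above sham.

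How the genes varied among themselves was described after the mean of each group had been subtracted. Over the 17 libraries the log2 CPM of the 7 muscle genes correlated with Pearson's r of 0.60 to 0.95 in their 21 pairs. That likeness rested on infarct zone replicate 1: with 16 libraries the range was -0.35 to 0.85. Foxo1 had r of 0.48 to 0.64 with the muscle genes and -0.16 to 0.22 without that library. Foxo3 had r of -0.03 to 0.42, and -0.19 to 0.65 without it. Points of this kind share a library, its scaling and its share of cardiomyocyte RNA.

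Among 9314 genes that averaged 10 CPM or more, those most like Trim63 were Fhl2 (r = 0.97, 0.88 without replicate 1), a LIM protein of the sarcomere, Hfe2 (r = 0.97 and 0.89), which encodes hemojuvelin, and Tmod1 (r = 0.97 and 0.85), which caps thin filaments. Those most like Fbxo32 were Gm37829 (r = 0.92 and 0.71), Homer2 (r = 0.90 and 0.66), a scaffold protein, and Tom1l2 (r = 0.90 and 0.66). For Foxo1 they were Ppp1r15a (r = 0.86 and 0.76), a stress-induced phosphatase subunit, Vtn (r = 0.85 and 0.71), which encodes vitronectin, and Tmcc3 (r = 0.85 and 0.78).

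Kbtbd10 has relatives among the muscle kelch adaptors of cullin 3. Of 8 listed, 5 had enough counts and all 5 fell. For this list and those below, TMM scaling called 33.1% of all tested genes lower and 36.3% higher. The 5 were Klhl31 at -2.53, Klhl40 at -2.53, Kbtbd12 at -2.46, Klhl30 at -2.23 and Klhl24 at -1.61 on the log2 scale. Their median of -2.46 was close to that of the 9 tested genes above. Klhl40, which stabilises nebulin and leiomodin 3, went from 18.3 ± 5.34 CPM (SD, n = 8) to 3.36 ± 4.02 CPM (SD, n = 9). Kbtbd13, Klhl33 and Klhl38 had at most 7 counts in any library.

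The general machinery that these adaptors plug into had smaller changes. Of 10 cullin ligase core genes 7 fell, with a median of -0.54, led by Cul2 (-0.82) and Cul5 (-0.79), the cullin that ASB2 binds. Nedd8 (-0.11) and Elob (-0.02) were the least changed and were not called. With total counts as the only scaling, 9 of the 10 were called higher and none lower, where 74.6% of all tested genes were called higher, so their direction depends on the scaling, while the muscle kelch adaptors were all lower there too. Of 11 ubiquitin-conjugating enzymes, which hand ubiquitin to ligases, 6 fell and 1 rose. Ube2b, the E2 of muscle N-end rule degradation, fell from 296 ± 24.8 to 91.4 ± 18.5 CPM (SD, n = 8 and 9; -1.70 on the log2 scale) and Ube2g1 fell by 0.92. Ube2j1, an E2 of the endoplasmic reticulum, rose by 0.83, and Ube2l3 was at 0.01. Total counts alone gave 1 lower and 8 higher, beside 12.5% and 74.6% of all genes.

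Of 13 other ligases linked to muscle atrophy or protein quality, 6 fell and 2 rose, with a median of -0.19. Mul1, a mitochondrial ligase, fell by 1.70. Ubr2, an N-end rule ligase, fell by 1.22. Cblb, which acts on IRS1, rose by 0.93 from 11.5 ± 3.55 to 22.2 ± 4.30 CPM (SD, n = 8 and 9), and Traf6 at 0.33 was not called. These ligases are not restricted to muscle. Total counts alone turned the split to 1 lower and 9 higher, where 12.5% and 74.6% of all genes were called so.

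**Figure D4:**
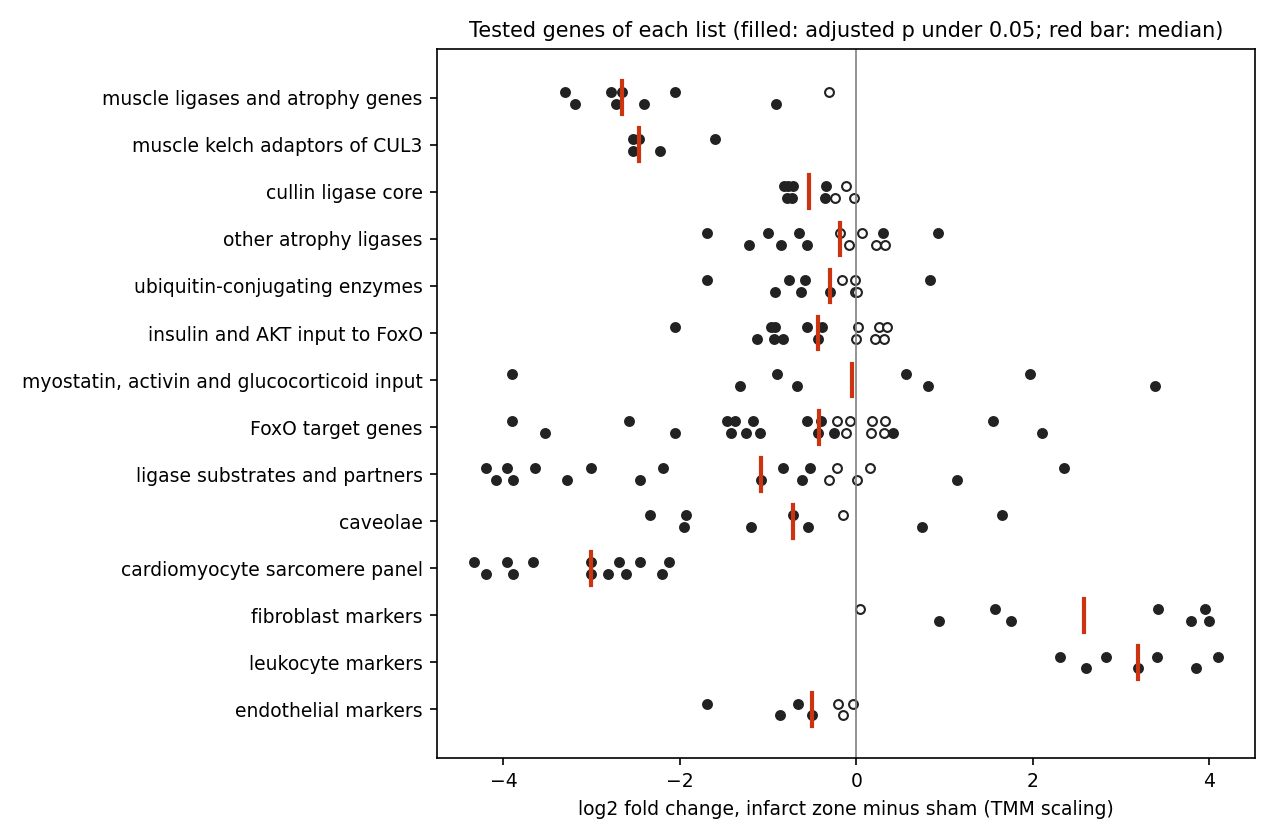
Log2 fold changes, infarct zone minus sham, of the tested genes of each list with TMM scaling, 1 point per gene, filled where the adjusted p was under 0.05, with a red bar at the median. The median was -2.65 for the muscle ligases and atrophy genes, -2.46 for the kelch adaptors and -3.01 for the sarcomere panel, against -0.54 for the cullin core and -0.19 for the other atrophy ligases.

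Of 15 tested genes of the insulin and AKT pathway that acts on FoxO, 9 fell with TMM scaling and none was called higher, while the alternatives other than total counts alone called 0 to 2 higher. The list includes Foxo4 (-0.97), a FoxO factor itself. Insr, the insulin receptor, fell from 95.7 ± 16.5 to 23.4 ± 7.14 CPM (SD, n = 8 and 9, -2.06 on the log2 scale). All its infarct zone libraries were below sham, as for 16.5% of all tested genes. Pik3r1, a regulatory subunit of PI3 kinase, fell by 1.13. Igf1r at 0.35 and Irs2 at 0.32 had the highest values and were not called. Total counts alone gave 1 lower and 9 higher genes, where 12.5% and 74.6% of all genes were.

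The myostatin, activin and glucocorticoid list had 8 tested genes, of which 4 fell and 4 rose. Klf15, a glucocorticoid-induced factor of muscle and liver metabolism, fell by 3.90, and Acvr2b, a receptor of myostatin and activin, fell by 1.32. Inhba, the subunit of activin A, rose from 2.55 ± 0.97 to 27.0 ± 11.6 CPM (SD, n = 8 and 9; 3.39 on the log2 scale), and Fst, the activin antagonist follistatin, rose by 1.97. Without infarct zone replicate 1 the list counted 3 lower and 2 higher genes. Mstn, which encodes myostatin itself, had at most 2 counts in any library.

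FoxO target genes did not move as a block. Of 24 known targets, 14 fell, 3 rose and 7 were not called, with a median of -0.42. Of all tested genes, 33.1% fell and 36.3% rose. The lowest targets were Klf15 (-3.90) and Pdk4 (-3.53), a kinase that shuts pyruvate out of oxidation and went from 246 ± 107 to 21.4 ± 23.2 CPM (SD, n = 8 and 9). The highest were the lysosomal protease Ctsl (2.10, from 156 ± 16.0 to 668 ± 160 CPM) and the cell cycle inhibitor Cdkn1a (1.55). Each was above sham in all 9 infarct zone libraries, as were 16.6% of all tested genes. Total counts alone gave 7 lower and 14 higher, with the same 12.5% and 74.6% of all genes beside it. Leukocytes and fibroblasts also express Ctsl, and their markers rose in the same libraries, fibroblast markers summing to 1527 to 2953 CPM in sham hearts and 12565 to 20499 CPM in the infarct zone, and leukocyte markers to 278 to 426 and 1616 to 4568 CPM; their part in the result was not tested.

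Substrates and partners of the ligases went both ways, with more falls than rises. Of 19 tested, 13 fell and 2 rose, where 33.1% and 36.3% of all tested genes did. Over 25 alternatives, 9 to 15 of the list were called lower and 2 to 8 higher, so the split depends on the processing. With total counts alone, 12.5% and 74.6% of all tested genes were called lower and higher. Tnni3, cardiac troponin I and a MuRF1 substrate, fell by 4.19, and Ckm, muscle creatine kinase, fell by 4.08. Both are cardiomyocyte genes. Tnni3, Myh6, Myl2, Mybpc3 and Ttn of this list are also in the sarcomere panel, and Ckm is in the panel of 10 other cardiomyocyte genes. All of these fell, so the falls in the list are in part those already given for the panels. Flna, a filamin and a target of ASB2, rose by 2.36, going from 85.2 ± 14.7 to 437 ± 93.1 CPM (SD, n = 8 and 9). Flnc, another filamin of the list, fell (-1.08 on the log2 scale). These are mRNA levels, and filamin protein was not measured. Flna is expressed in most cells outside cardiomyocytes, and smooth muscle markers Tagln (2.79), Cnn1 (2.58) and Acta2 (2.28) rose in the same libraries, although Myh11 (-0.92) and Smtn (-1.41) fell; their part was not tested.

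Caveolar genes, the setting of Murc, went both ways too. Of 9 tested, 6 fell and 2 rose, where 33.1% and 36.3% of all tested genes did. Cav3, the muscle caveolin, fell by 2.34, from 85.6 ± 11.4 to 17 ± 11.4 CPM (SD, n = 8 and 9), and Cavin2 fell by 1.95. Cavin3 rose by 1.66, from 38.1 ± 3.95 to 120 ± 21 CPM (SD, n = 8 and 9), with all 9 infarct zone libraries above sham, as for 16.6% of all tested genes. Ehd2, an ATPase at the caveolar neck, rose by 0.75. Total counts alone gave 3 lower and 5 higher (12.5% and 74.6% of all genes), with Murc lower on both scales.

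Skeletal muscle, in which these ligases are best known, was looked for in the libraries. Of 11 skeletal markers, 9 had too few counts to test, and Myh4 and Myog had none in any library. The markers together summed to 5 to 38 CPM in sham hearts and 10 to 23 CPM in the infarct zone. Tnnt3, fast skeletal troponin T, rose by 3.18, from 0.47 ± 0.61 to 4.75 ± 1.77 CPM (SD, n = 8 and 9), and Tnni2 at 1.02 was not called (adjusted p = 0.053 by edgeR). Over 25 alternatives the number of skeletal markers called higher ran from 0 to 2, and it differed from 1 in 17 of them. Endothelial markers, which cover a cell type that expresses Foxo1, included 4 genes that fell and 3 not called of 7, from Kdr (-1.70) and Tek (-0.87) to Pecam1 (-0.16) and Emcn (-0.04). The 25 alternatives called 1 to 4 of these markers lower and 0 to 5 higher, so their direction depends on the processing. Total counts alone called 12.5% of all tested genes lower and 74.6% higher. The endothelial markers summed to 472 to 908 CPM in sham hearts and 341 to 565 CPM in the infarct zone, and their part in the Foxo1 values was not tested.

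Other genes overlap some of these 10 in the annotation. Antisense genes lie across Trim54, Fbxo32 and Asb2, and the most counts any of them had in a library was 2. BC002189, within an intron of Trim55 on the same strand, reached 42, above the 15 that Trim55 itself reached. Gm38034, on the strand of Foxo1, reached 1, and Gm20402, antisense to Foxo1, was not analysed here. The end of Trim54 is shared with its antisense gene Gm15469, and that of Foxo1 resembles 1 stretch of Rsf1 at 95% identity or more.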

How the data were processed

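Per the labels and the study's methods, the authors extracted total RNA, made 3' end libraries with molecular identifiers (MACE), trimmed reads with Cutadapt, mapped them to mm10 and counted genes with HTSeq; Bowtie2 is named in the processing notes. The deposited values are raw counts per gene, with no normalization. The annotation release and the treatment of reads with several locations were not given in the sources used here. Of 31647 features, 35 were merged genes without a name of their own.

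Counts were fitted with edgeR 4.0.16 in R 4.3.3 (filterByExpr with a minimum of 10 counts, TMM, two-sided quasi-likelihood F-test, no covariates, Benjamini-Hochberg over all 12301 tested genes, threshold 0.05). A second fit used the summed counts of 13 sarcomere genes as library size. SE values were derived from the F statistic, and log2 CPM used a prior count of 1. DESeq2 1.42.0 served as an alternative, and BLAST 2.17.0 found shared 3' ends. Promoter sequences are from RefSeq (GRCm38.p6), coordinates from an annotation of GRCm38.

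The 10 genes and all lists were chosen with earlier results of these data known. Named genes are the 10, all tested genes of lists with 6 or fewer, and the 2 highest and 2 lowest of longer lists. The result of 1 gene that met this rule is left out. The 3 genes most like Trim63, Fbxo32 and Foxo1 were taken by Pearson correlation. Flnc, panel genes named among the ligase substrates, untested genes and overlapping genes named beside them were chosen after their values were seen. Alternatives were 3 other scalings, the DESeq2 test, other filters, a replicate block, other panels and the omission of each library.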

Additional observations from a re-analysis of the deposited data

Results flagged for a closer look

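Of 20 groups of libraries examined (10 genes in 2 groups), 10 held a library whose gap to its nearest neighbour was large for the range of its group (Dixon's criterion at 95%). The criterion marks about 1 in 20 single groups by chance. The genes share their libraries, so the groups are not independent and their number cannot be set against that rate. In 9 of the 10 cases the library was infarct zone replicate 1, the highest of its group. Its values were 96.6 CPM for Trim63, 113 for Trim54, 3.23 for Trim55, 57.4 for Fbxo32, 98.4 for Fbxo40, 147 for Asb2, 27.3 for Kbtbd10, 40.9 for Murc and 52.8 for Foxo1. The same library had 33848 CPM of the sarcomere panel, against 3357 to 7874 in the other infarct zone libraries, and its part in these values was not tested beyond its omission. The tenth case was sham replicate 4 for Trim55, with 8.28 CPM from 15 counts.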

How the results depend on the processing

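The falls of Trim63, Trim54, Fbxo32, Fbxo40, Asb2, Kbtbd10 and Murc against sham kept their direction and their call under all 25 alternatives each, and over them ran from -4.09 to -1.04 on the log2 scale. With total counts alone as scaling, Foxo1 turned to 0.74 and Foxo3 to 0.16, and the median of all genes went from 0.05 to 1.13. Without a library, 8 to 9 of the genes and 7962 to 8614 of all genes were called. A minimum mean of 50 counts left 5239 calls because fewer genes were tested. Relative to the panel, Asb2 turned to 0.47 against a panel of 10 other cardiomyocyte genes, and Murc turned to -0.042 without Myh6 in the panel, to -0.013 without infarct zone replicate 2 (-0.013 to 0.18 over the omission of each library) and to -0.0064 in the permutation, which was chosen after seeing the data. None of these 4 values was called. The Trim54 difference lost its call with the geometric mean over the panel (0.57), without Myh6 (0.54) and without 8 of the libraries in turn (0.57 to 0.67), and 6 to 7 genes were called relative to the panel without a library. Replicate numbers do not pair these animals: the correlations of same-numbered libraries ran from -0.31 to 0.20. With the replicate block, which leaves out infarct zone replicate 9, 7884 genes were called instead of 8544 and 8 of the 9 tested genes were still called, while relative to the panel 5 instead of 7 were, Trim63 (0.74) and Trim54 (0.71) losing the call. Depth limits Trim55 most, with at most 15 counts in a library.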
